A study of Canis lupus familiaris with 33 samples.

Results

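B-cell and plasma-cell genes were examined in canine invasive urothelial carcinoma (iUC), the common malignant tumor of the urinary bladder lining in dogs. The 9 genes were taken by symbol from the 25096 genes of the TMM-normalized table. They are CD79A, CD79B, MS4A1, CD22, PAX5, BLK, POU2AF1, TNFRSF17 and TNFRSF13B, each found in 1 row, and all 9 passed the filter on low values. RNA-seq was performed on 29 tumors, each collected by cystoscopy from a different untreated dog, and on 4 normal samples, in which the mucosa was dissected from the bladder of dogs euthanized for diseases of other organs. No gene was altered and no agent was given, and neither group was sorted by cell type. All tumors were high grade and, by the paper's account, consisted largely of epithelial cells. The part of this in the values of the 9 genes was not tested. The dogs with tumors were not selected by breed, age or sex.

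B cells recognize antigen through the B-cell receptor, a membrane immunoglobulin whose signal enters the cell through the CD79A and CD79B chains. After activation some B cells become plasma cells, which secrete antibody and lose most surface B-cell proteins. In bladder mucosa and in tumors, B cells can lie scattered or gather with T cells in lymphoid aggregates. In a bulk sample, fewer cells of a type and less RNA per cell cannot be told apart.

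Each deposited value is a log2 normalized value minus the gene's own median across the 33 samples. A value of 1 is therefore a level 2-fold above the gene's median, and values of different genes do not rank their abundance. There were 4 of the 9 genes (CD79B, MS4A1, PAX5 and BLK) with a lowest value shared by several tumors, which is the point below which a level was not recorded. This shared lowest value was reached by 5 tumors for CD79B, 4 for MS4A1, 11 for PAX5 and 2 for BLK, and by no normal.

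The groups differed in low-level signal across the table. Of 467 olfactory receptor genes, which bladder is not known to use, 99.4% to 99.8% lay above the lowest value in each normal, and 6.21% to 91.9% did in the tumors (median 20.8%). More than 50% was reached by 4 tumors (5, Po, 9 and 1), and these are called high-background tumors below. The labelled tissue was also compared with marker lists: by limma at an adjusted p no larger than 0.05 and a 2-fold difference, 6 of 6 smooth muscle genes were lower in tumors, and of 10 urothelial genes 6 were higher and 1, KRT20, was lower, beside 45.8% lower and 10.7% higher among all genes. With the olfactory receptor share as a covariate the smooth muscle count was the same, and 4 urothelial genes were higher and 0 lower, with KRT20 going from -3.75 to 0.52. The median log2 difference of all 24471 genes tested was -0.84 (tumors minus normals), which rose to -0.01 when only genes above the lowest value in at least 17 samples were tested.

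MS4A1, PAX5 and BLK were lower in tumors than in normals, and the other 6 members were not called in either direction. The test was limma with Benjamini-Hochberg adjustment over all genes, and a call required an adjusted p no larger than 0.05 together with a 2-fold difference. By the same rule 45.8% of all genes were lower in tumors and 10.7% were higher, and with only genes above the lowest value in at least 17 samples tested the same 3 members were called beside 30.1% lower among all genes. The count of 3 of 9 thus lay below the share of the whole table by one filter and above it by the other. None of the 9 was higher in tumors, by this limma test or at an unadjusted p under 0.05, in the TMM or the DESeq table. In no member were all tumors below all normals, against 28.5% of all genes, or all tumors above them, against 7.63%.

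The receptor chains CD79A and CD79B did not separate the groups. CD79A was 0.77, 0.16, -0.88 and 0.87 in normals A to D, and in tumors it ran from -3.87 over a median of -0.04 to 6.85. The tumors reached far beyond the normals on both sides: 9 tumors were above every normal and 9 were below. The difference was -0.05 ± 1.03 (SE, log2, limma adjusted p = 0.968, 95% interval -2.15 to 2.05). CD79B was -0.44, 0.00, 1.41 and 0.76 in the normals, and -2.55, -0.20 and 5.37 at the lowest, median and highest tumor. In all, 6 tumors were above every normal and 14 below, with a difference of -0.51 ± 1.03 (limma adjusted p = 0.667). The 95% interval for CD79B was -2.61 to 1.59, so neither interval excludes a difference of several fold.

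Among the surface proteins, MS4A1 was lower in tumors and CD22 was not called. MS4A1 encodes CD20, a membrane protein carried by B cells and lost by plasma cells. It was 3.04, 2.10, 2.05 and 2.53 in normals A to D, and -4.00, -1.16 and 5.69 at the lowest, median and highest tumor. Of the tumors, 24 lay below every normal, 3 above (Da6, 4 and Po) and 2 between. MS4A1 fell by 2.96 ± 1.29 on the log2 scale (limma adjusted p = 0.0402; exact permutation p = 0.0332, two-sided, 4 normals against 29 tumors). This call was lost without any 1 of the 4 normals: leaving out normal A, B, C or D gave adjusted p-values between 0.066 and 0.103. It was also lost with a separate weight for each group (limma adjusted p = 0.0602). CD22, an inhibitory co-receptor of the B-cell receptor, was 0.00, 0.83, -0.36 and 0.12 in the normals and -1.64, -0.06 and 2.17 at the lowest, median and highest tumor. Its difference was -0.10 ± 0.47 (limma adjusted p = 0.856, 95% interval -1.06 to 0.86), and 0.64 with an interval of -0.79 to 2.07 with the olfactory receptor share as a covariate.

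The kinase BLK, a SRC family kinase of B cells, was 2.74, 2.21, 1.49 and 2.79 in normals A to D. The lowest, median and highest tumors were at -4.13, -0.44 and 3.42, with 24 tumors below every normal and only tumor Da6 above. BLK fell by 2.62 ± 0.87 on the log2 scale (limma adjusted p = 0.00789, exact permutation p = 0.00694).

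Of the transcription regulators, PAX5 was lower in tumors and POU2AF1 was not called. PAX5, which holds cells in the B lineage and is switched off in plasma cells, was 3.95, 3.41, 2.30 and 4.03 in normals A to D. The tumors ran from -1.37 over a median of -0.57 to 4.04, and 27 of the 29 were below every normal. The exceptions were tumor 4, above all normals, and tumor Po, among them. PAX5 fell by 3.40 ± 0.80 on the log2 scale (limma adjusted p = 3.26e-04, exact permutation p = 4.40e-04). POU2AF1, a coactivator that works with octamer-binding factors in B cells and plasma cells, was 1.00, -0.16, 0.00 and 1.01 in the normals. It had the widest range of the 9 among tumors, from -5.01 to 7.69 with a median of -0.27, and 10 tumors were above and 15 below every normal. The difference was -0.47 ± 1.36 (limma adjusted p = 0.766, 95% interval -3.24 to 2.30).

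Neither receptor for the survival factors BAFF and APRIL was called. TNFRSF17 encodes BCMA, which is typical of plasma cells. It was 0.91, 0.37, -0.09 and 0.37 in the normals and -1.58, -0.06 and 4.35 at the lowest, median and highest tumor. The highest tumor was Da6, and the next, tumor 4, was at 1.14. TNFRSF13B encodes TACI, found on activated B cells and plasma cells. It was 0.08, -0.33, -0.86 and 0.03 in the normals and -1.09, 0.00 and 1.51 at the lowest, median and highest tumor. The differences were -0.45 ± 0.51 for TNFRSF17 (limma adjusted p = 0.432) and 0.30 ± 0.30 for TNFRSF13B (limma adjusted p = 0.368), with 95% intervals of -1.47 to 0.58 and -0.30 to 0.90.

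**Figure D1:**
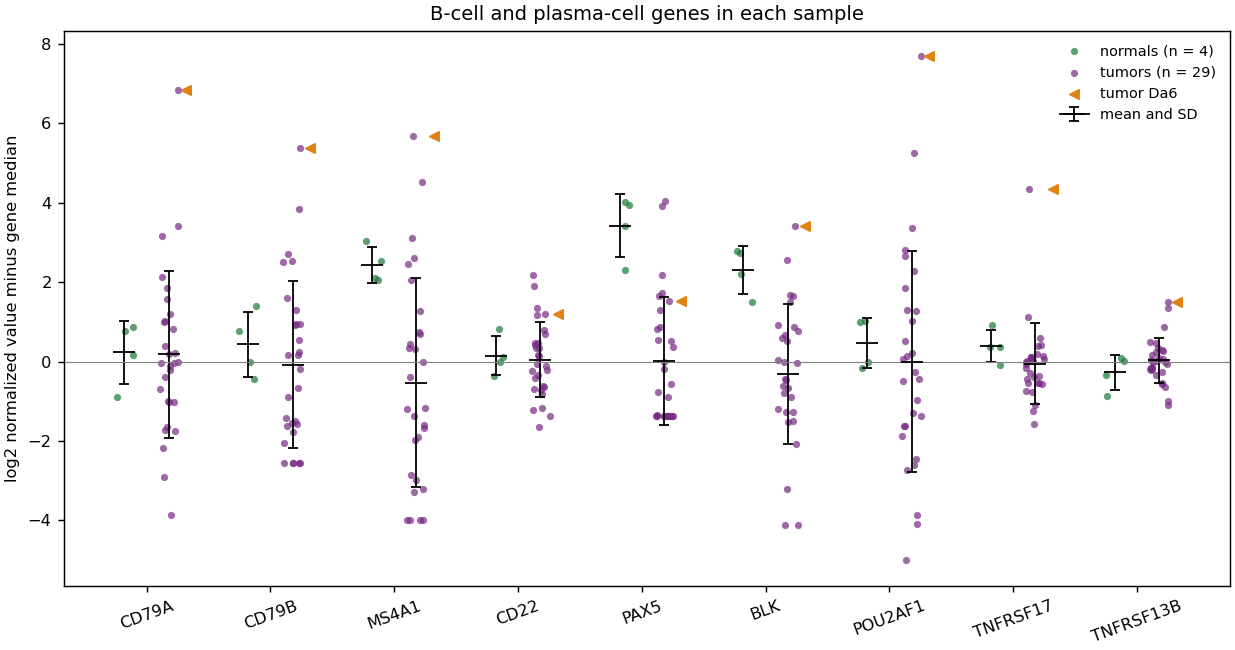
Values of the 9 genes in each sample (y axis, log2 normalized value minus the median of the gene over 33 samples; green points, 4 normals; purple points, 29 tumors; black bars, mean and SD; orange triangle, tumor Da6). For MS4A1, PAX5 and BLK 24, 27 and 24 of the 29 tumors lie below all 4 normals, against 15 or fewer for each of the other genes, and for every gene the highest tumor lies above the highest normal.

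The level above the shared lowest value was set beside that of the olfactory receptor genes. Above its shared lowest value, MS4A1 reached a log2 height of 6.05 to 7.04 in the normals, BLK 5.62 to 6.92, PAX5 3.66 to 5.39 and CD79B 2.12 to 3.96, while the median olfactory receptor gene stood at 5.53 to 6.17 in the normals and at 0 to 2.45 in the tumors. With the olfactory receptor share as a covariate none of the 9 was called by limma, and none had an unadjusted p under 0.05, while 36.7% of all genes were lower and 8.25% higher in the same fit. The differences were then -0.91 for MS4A1, -1.90 for PAX5 and -1.89 for BLK, with adjusted p-values of 0.712, 0.176 and 0.236. When only the 4 high-background tumors were set against the 4 normals, BLK was still called at -2.24 (limma adjusted p = 0.0116), and PAX5 at -2.36 (adjusted p = 0.0584) and MS4A1 at -1.43 (adjusted p = 0.164) were not, while 43.9% of all genes were lower in that fit. Without these 4 tumors the same 3 genes were called, beside 45.6% lower among all genes. In the remaining 25 tumors the olfactory receptor share did not exceed 49.5% and in the normals it was never below 99.4%, so over these samples it cannot be told apart from the group. Within the 29 tumors, Pearson's r with the olfactory receptor share was 0.24 for MS4A1, 0.29 for PAX5 and 0.13 for BLK (permutation p = 0.202, 0.118 and 0.496), with rho of 0.11, 0.13 and 0.02 (permutation p = 0.568, 0.509 and 0.927), of 9 such relations computed. Without the 2 tumors farthest from the median share, r was -0.0037, -0.0128 and -0.0592.

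**Figure D2:**
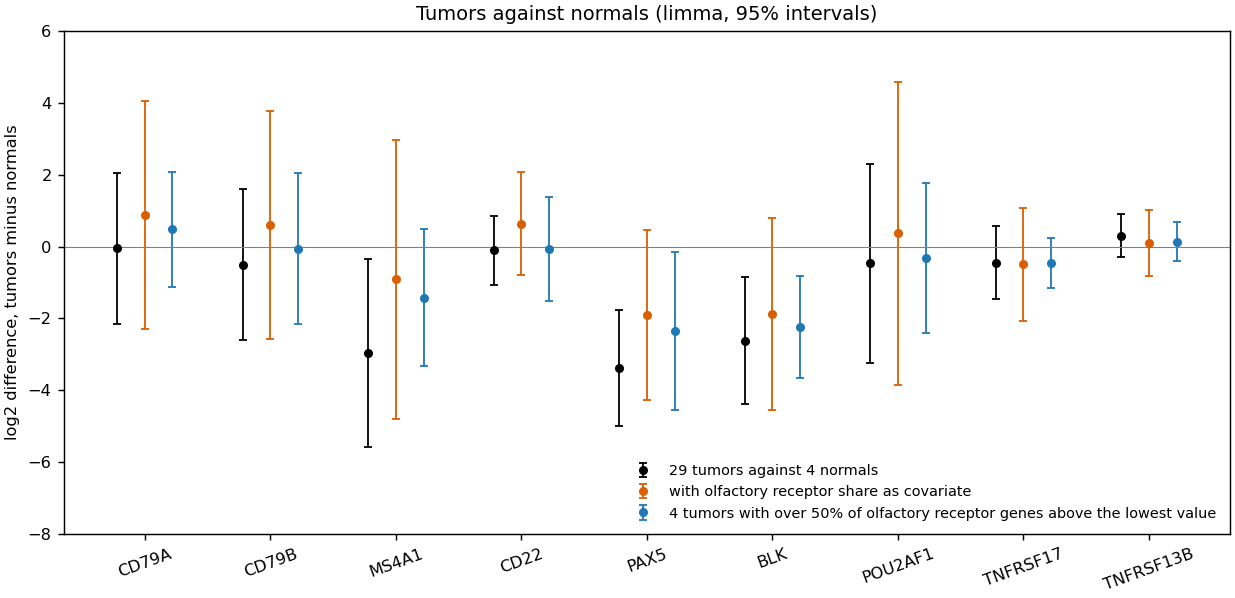
Difference of tumors minus normals for each gene (y axis, log2; points, limma estimate; bars, 95% interval) in all samples (black), with the olfactory receptor share as a covariate (orange) and for the 4 high-background tumors alone (blue). The intervals of MS4A1, PAX5 and BLK lie below 0 in all samples and cross 0 with the covariate, and only those of PAX5 and BLK stay below 0 in the high-background tumors.

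Of 21 other B-lineage genes tested, 12 were lower in tumors and 1 was higher, beside 45.8% lower and 10.7% higher among all genes, with a median difference of -1.55 against -0.84 for all genes. With the olfactory receptor share as a covariate 2 were lower and 0 higher by limma, beside 36.7% and 8.25% of all genes, and 8 had an unadjusted p under 0.05. BACH2, a repressor that delays plasma cell formation, fell by 3.88 (limma adjusted p = 6.45e-05), and FCRL1, a surface receptor of B cells, fell by 3.53 (adjusted p = 1.83e-04). The gene that was higher was ADAM28, a metalloprotease of lymphocytes and epithelia, at 1.28 (adjusted p = 0.00978). With the covariate BACH2 and FCRL1 were at -2.71 and -2.47. None of these 3 genes was then called (limma adjusted p = 0.0569 for BACH2, 0.0803 for FCRL1 and 0.0596 for ADAM28). The 2 genes called lower with the covariate were EBF1 at -3.76 and HVCN1 at -1.49 (limma adjusted p = 2.77e-04 and 0.031).

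Of 7 plasma cell genes tested, 3 were higher in tumors, 0 were lower and 4 were not called by limma, beside the same shares of 10.7% higher and 45.8% lower among all genes. With the olfactory receptor share as a covariate, or without Da6 or the high-background tumors, 2 were higher and 0 lower. The 3 were ITM2C at 1.54, PRDM1, the repressor that drives plasma cell formation, at 1.46 and SEC11C, a signal peptidase subunit, at 1.02 (adjusted p = 0.00134, 0.00926 and 0.00127), and PRDM1 lost its call with the covariate (1.67, limma adjusted p = 0.0638). SEC11C lost its call through the 2-fold limit without Da6 (0.96) and without the high-background tumors (0.995). These 3 genes are not restricted to plasma cells. JCHAIN and MZB1, which serve antibody assembly, had differences of 1.61 ± 1.15 and 1.09 ± 1.28 and were not called (adjusted p = 0.207 and 0.451). PIGR, the epithelial receptor that carries antibody bound to the J chain across the lining, rose by 5.57 in tumors (limma adjusted p = 2.27e-10).

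In the B-cell receptor signaling list, 1 of 9 genes was higher in tumors and 0 were lower by limma, beside 10.7% higher and 45.8% lower among all genes. This was INPP5D, a phosphatase that limits the signal, at 1.69 (adjusted p = 2.53e-05). PLCG2, the phospholipase that passes the signal on, differed by -0.29 ± 0.53 (adjusted p = 0.628). Among 10 survival and homing signals, 1 was higher and 3 were lower, beside the same shares of all genes. With the olfactory receptor share as a covariate 1 was higher (TNFSF11) and 1 lower (IL21), and CCL19 and CXCR5 lost their calls (limma adjusted p = 0.200 and 0.426). TNFSF11, the cytokine RANKL, rose by 2.49, while IL21, a T-cell cytokine that acts on B cells, fell by 6.55 (limma adjusted p = 2.85e-04 and 5.29e-10). IL21 was at its lowest value in 18 tumors. TNFSF13B, which encodes BAFF, differed by -0.29 ± 0.46 (adjusted p = 0.588). Of 2 germinal centre genes, SERPINA9 fell by 4.64 (limma adjusted p = 5.39e-07) and MEF2B was not called, beside 45.8% lower among all genes. Without tumor Da6 MEF2B was called lower as well, at -1.37 (limma adjusted p = 0.0166), beside 45.9% of all genes.

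Markers of other cells in the samples were counted in the same way. Of 14 T-cell genes 3 were lower and 0 higher in tumors, and of 9 pan-leukocyte genes 1, LAPTM5, was higher by limma. Of 12 myeloid genes 1 was higher and 1 lower, and of 3 plasmacytoid dendritic genes none was called. The shares among all genes were 45.8% lower and 10.7% higher. Without tumor Da6 4 T-cell genes were lower and 0 pan-leukocyte genes higher. LAPTM5 lost its call through the 2-fold limit without Da6 (0.95) and without the high-background tumors (0.995). With the olfactory receptor share as a covariate 0 of 14 T-cell genes were called, and 0 had an unadjusted p under 0.05 in limma, and no pan-leukocyte gene was called, with 1 at an unadjusted p under 0.05. The mean z of the T-cell list was 0.32 to 0.72 in the normals and -1.41 to 2.04 in the tumors over all samples, so that the normals lay inside the range of the tumors. The part of these cells in the differences of the 9 genes was not tested.

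The SD over the 29 tumors was highest for POU2AF1 at 2.79 and lowest for TNFRSF13B at 0.57, where the SD of the 4 normals was 0.63 and 0.43. Tumor Da6 was the highest tumor for 7 of the 9 genes, with 6.85 for CD79A, 5.37 for CD79B, 5.69 for MS4A1, 3.42 for BLK, 7.69 for POU2AF1, 4.35 for TNFRSF17 and 1.51 for TNFRSF13B. It had 1.19 for CD22 and 1.53 for PAX5, where tumor 4 was highest at 2.17 and 4.04. Tumor 4 was among the 5 highest tumors for 8 of the 9 genes, and tumor Po, a high-background tumor, for 6.

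Tumor Da6 was set apart in other genes as well. It was the highest tumor for 10 of 14 T-cell genes and 7 of 9 pan-leukocyte genes, and among the 4 lowest for 8 of 10 urothelial genes. Over the tumors, its mean z was 2.07 for the T-cell list and -1.84 for the urothelial list. JCHAIN and MZB1 reached 8.77 and 8.79 there.

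At the other end, tumor 7_733858 was lowest for CD79A at -3.87 and for POU2AF1 at -5.01, with MS4A1 at -3.28, while its CD79B was 0.16. This tumor had the highest mean z of the smooth muscle list among the tumors, at 2.68, and tumor 7, with CD79A at -2.17, had the next at 2.25. The part of smooth muscle in these values was not tested. Tumor Mis had CD79A at -2.90 and both MS4A1 and BLK at the lowest value. Tumor 11 broke the order: POU2AF1 was 5.26, the second highest of all tumors, with CD79A at -1.64, MS4A1 at -2.99 and PAX5 at the lowest value. Tumor 19 had CD79B at 2.71, the third highest, with MS4A1 at the lowest value and POU2AF1 at -4.08. Tumor JE had the second highest CD79A at 3.43, with CD22 at -0.35 and PAX5 at -0.77.

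**Figure D3:**
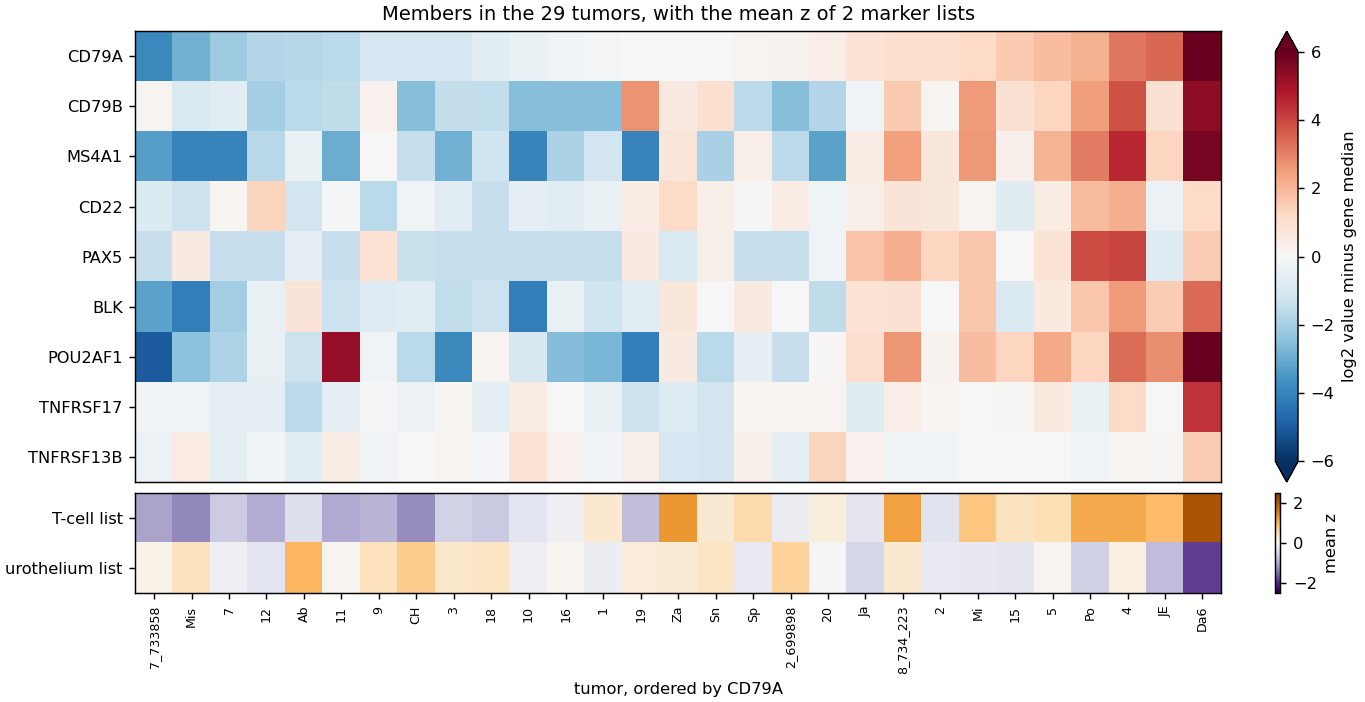
Values of the 9 genes in the 29 tumors (columns, ordered by CD79A; color, log2 value minus the median of the gene, cut at -6 and 6), above the mean z of the T-cell and urothelial lists over tumors. Tumors at the right are high for most of the 9 genes and for the T-cell list, TNFRSF13B changes little along the order, and POU2AF1 in tumor 11 stands out at 5.26.

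Across the tumors, CD79A, MS4A1 and BLK varied with most of the other members, and TNFRSF13B with none that passed the test. The 36 pairs had a median Pearson's r of 0.56, from -0.06 to 0.88, and 34 were positive. Each gene was also fitted in turn against all 22029 other genes that passed the filter in tumors, and a pair was called if limma gave an adjusted p of at most 0.05 in both directions. In all, 14 of the 36 pairs were called, all positive. Among all genes, the share called positive was 1.88% with CD79A, 1.93% with CD79B, 2.27% with MS4A1, 1.02% with CD22, 0.0499% with PAX5, 1.90% with BLK, 1.02% with POU2AF1, 0.826% with TNFRSF17 and 0% with TNFRSF13B. By the rule of both directions, 5 of the other 8 members were called with each of CD79A, MS4A1 and BLK, 4 with CD79B and with POU2AF1, 2 with PAX5 and with TNFRSF17, 1 with CD22 and 0 with TNFRSF13B.

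MS4A1 and BLK were the closest pair, with r = 0.88 and Spearman's rho of 0.88 (permutation p = 1e-05 for both, the smallest that 100000 resamples can give). Without the 2 tumors farthest from the MS4A1 median r was 0.83, and without Da6 it was 0.86. CD79A and MS4A1 followed at r = 0.81 and rho 0.77 (permutation p = 1e-05 for both), with r = 0.76 without the 2 farthest tumors. CD79B was closest to PAX5, at r = 0.77 and rho 0.76 (permutation p = 1e-05 for both), and r was 0.75 without the 2 farthest tumors. This last pair had 17 tumors in which both genes lay above the lowest value, where r was 0.57.

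The receptor chains themselves were related less tightly, at r = 0.68 and rho 0.57 (permutation p = 4e-05 and 0.00149), with r = 0.63 without the 2 farthest tumors. CD79A and POU2AF1 had r = 0.73 and rho 0.68 (permutation p = 2e-05 and 6e-05), and r fell to 0.53 without the 2 farthest tumors.

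Of the BAFF and APRIL receptors, TNFRSF13B had the lowest median r with the other members. TNFRSF17 was set lower by rho but hardly by r, and had as many called partners as PAX5 and more than CD22. Differences between members were not tested. TNFRSF17 had r = 0.70 with CD79A and rho of 0.52 (permutation p = 3.3e-04 and 0.00523), and r was 0.50 without the 2 farthest tumors and 0.44 without Da6. Its median rho with the other members was 0.27 against a median r of 0.53, where CD22 had 0.454 and 0.535. TNFRSF13B had a median r of 0.09 with the other 8 genes, and none of the 22029 genes was called with it by limma, although 2029 had an unadjusted p under 0.05. Its only value above 0.36 was with TNFRSF17, at r = 0.60 and rho 0.41 (permutation p = 0.00101 and 0.0265), which became 0.33 without the 2 farthest tumors and 0.39 without Da6.

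Leaving out Da6 reduced the called pairs from 14 to 5, and the median r of the 36 pairs from 0.56 to 0.47. The 5 pairs were CD79A with MS4A1, CD79A with BLK, MS4A1 with BLK, MS4A1 with PAX5 and CD79B with PAX5. Leaving out the 2 tumors farthest from the median kept 3 pairs, those among CD79A, MS4A1 and BLK. Without the 4 high-background tumors 9 pairs were called, with a median r of 0.55 over the 25 tumors. With the olfactory receptor share as a covariate 13 were called. Of 72 ordered limma tests (each pair in both directions), 55 had an unadjusted p under 0.05 in all tumors. This count was 47 without Da6, 43 without the 2 farthest tumors, 55 without the high-background tumors and 56 with the olfactory receptor share.

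**Figure D4:**
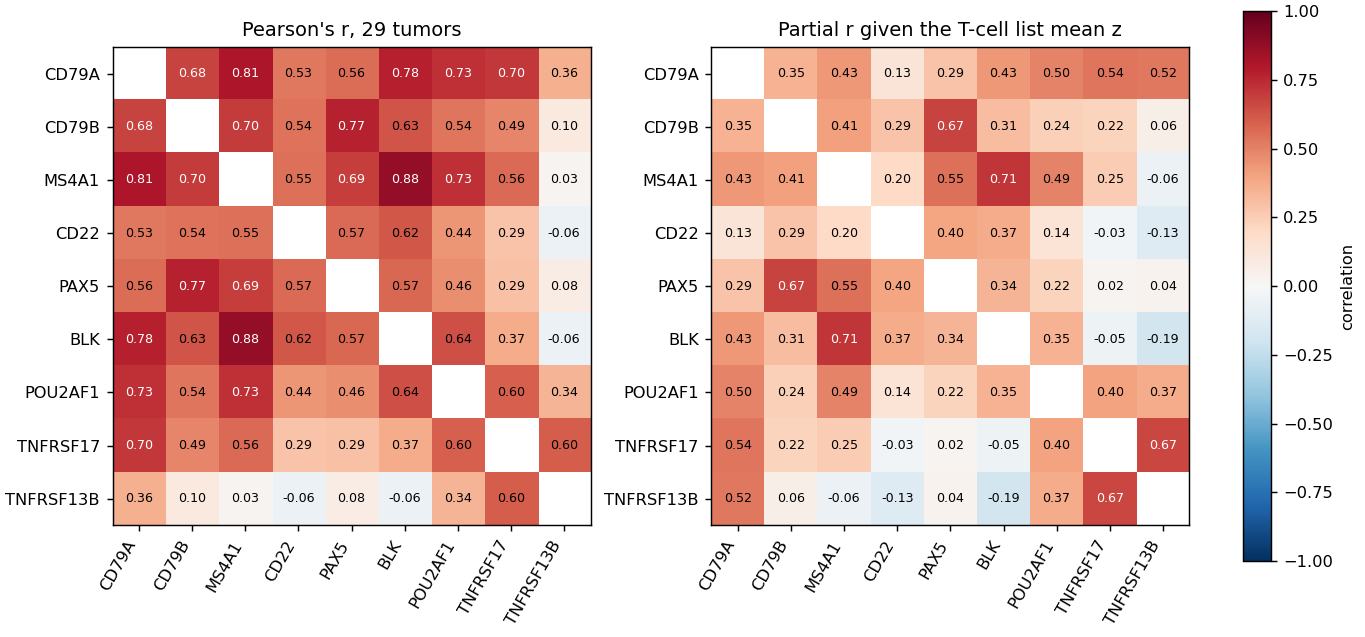
Pearson's r of each pair of the 9 genes over the 29 tumors (left) and the partial r of the same pairs given the mean z of the T-cell list (right), with the value written in each square. MS4A1 and BLK have the highest value in both panels, at 0.88 and 0.71, and TNFRSF13B is near 0 with 5 of the genes in the left panel.

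The number of T-cell genes called differed from member to member. All 14 T-cell genes were called positive with CD79A and with MS4A1, 11 with BLK, 8 with CD79B, 6 with POU2AF1, 3 with CD22, 1 with TNFRSF17 and 0 with PAX5 or TNFRSF13B. The median r of the T-cell list was 0.78 with CD79A and 0.72 with MS4A1, against 0.02 over all genes for both. It was 0.69 with BLK, 0.57 with CD79B and with POU2AF1, 0.49 with CD22 and with TNFRSF17, and 0.47 with PAX5. With TNFRSF13B it was 0.07, so PAX5 and TNFRSF13B differed here although neither had a call. The pan-leukocyte list had 8 of 9 genes called with CD79A, CD79B, MS4A1 and BLK. Of 12 myeloid genes, between 0 and 4 were called, with the most for CD22. Without Da6 the called T-cell genes were 10 of 14 with CD79A, 11 with MS4A1, 8 with BLK and 0 with each of the other 6 members, and the median r of the T-cell list was 0.73 with CD79A and 0.67 with MS4A1. Without Da6, 14 of 14 T-cell genes still had an unadjusted p under 0.05 in limma with CD79A, MS4A1 and BLK, 12 with CD79B, 13 with CD22, 11 with PAX5 and with POU2AF1, 4 with TNFRSF17 and 0 with TNFRSF13B. The called pan-leukocyte genes fell to 2 with CD79A, 0 with CD79B, 2 with MS4A1 and 6 with BLK. Of the 9 genes, 8, 9, 8 and 8 still had an unadjusted p under 0.05 in limma. Their median r was 0.59, 0.57, 0.57 and 0.64. In the same fits without Da6 the share of all genes called positive was also smaller for most members. It was 0.472% with CD79A, 0.0272% with CD79B, 1.01% with MS4A1, 0.486% with CD22, 0.604% with BLK, 0.0227% with POU2AF1 and 0% with TNFRSF17. With PAX5 (0.059%) and TNFRSF13B (0.00908%) it was slightly larger than with Da6.

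With the mean z of the T-cell list as a covariate, no pair was called by limma in both directions. Of 72 ordered tests 29 had an unadjusted p under 0.05, against 55 without the covariate. The median partial r of the 36 pairs was 0.32. The highest partial r were MS4A1 with BLK at 0.71, CD79B with PAX5 at 0.67 and TNFRSF17 with TNFRSF13B at 0.67, the last from an r of 0.60 without the covariate. With PTPRC, which encodes the pan-leukocyte protein CD45, as the covariate, only MS4A1 with BLK was called (larger adjusted p of both limma fits 0.0136). In those fits 34 of 72 ordered tests had an unadjusted p under 0.05. The share of all genes called with either covariate is not given, so whether the loss of calls is particular to the members cannot be told.

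The other lists are given as counts. Of 21 other B-lineage genes, 10 were called positive with MS4A1, 9 with CD79B and with CD22, 7 with CD79A and with BLK, 4 with POU2AF1, 2 with TNFRSF17, 1 with PAX5 and 0 with TNFRSF13B. Of 9 receptor signaling genes, 6 were called with MS4A1 and with BLK, and of 7 plasma cell genes at most 3, with CD79A. Of 10 survival and homing signals at most 3 were called, with CD79A, MS4A1 and BLK, of 3 plasmacytoid dendritic genes at most 2, with BLK, and of 2 germinal centre genes at most 1. None of 6 smooth muscle genes was called with any member, nor was PIGR. Urothelial genes had a median r of -0.40 with CD79A, 1 of 10 genes called negative with CD79A and 2 with TNFRSF17, where 0.200% and 0.0908% of all genes were called negative. Without Da6 that median was -0.18 and no urothelial gene was called with any member by limma, although 2 had an unadjusted p under 0.05 with CD79A and 1 with TNFRSF17. Without Da6 the other B-lineage genes called were 7 with CD22, 4 with BLK, 3 with MS4A1, 1 with CD79A and with PAX5 and 0 with the other 4 members. An unadjusted p under 0.05 in limma was reached by 16 of 21 with CD79B, 14 with CD22 and with BLK, and 12 with MS4A1 and with PAX5. It was reached by 10 with CD79A, 8 with POU2AF1, 3 with TNFRSF13B and 0 with TNFRSF17. At most 3 receptor signaling genes (CD22), 2 plasma cell genes (CD79A and MS4A1), 1 survival and homing gene (CD22) and 1 myeloid gene (MS4A1) were called.

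**Figure D5:**
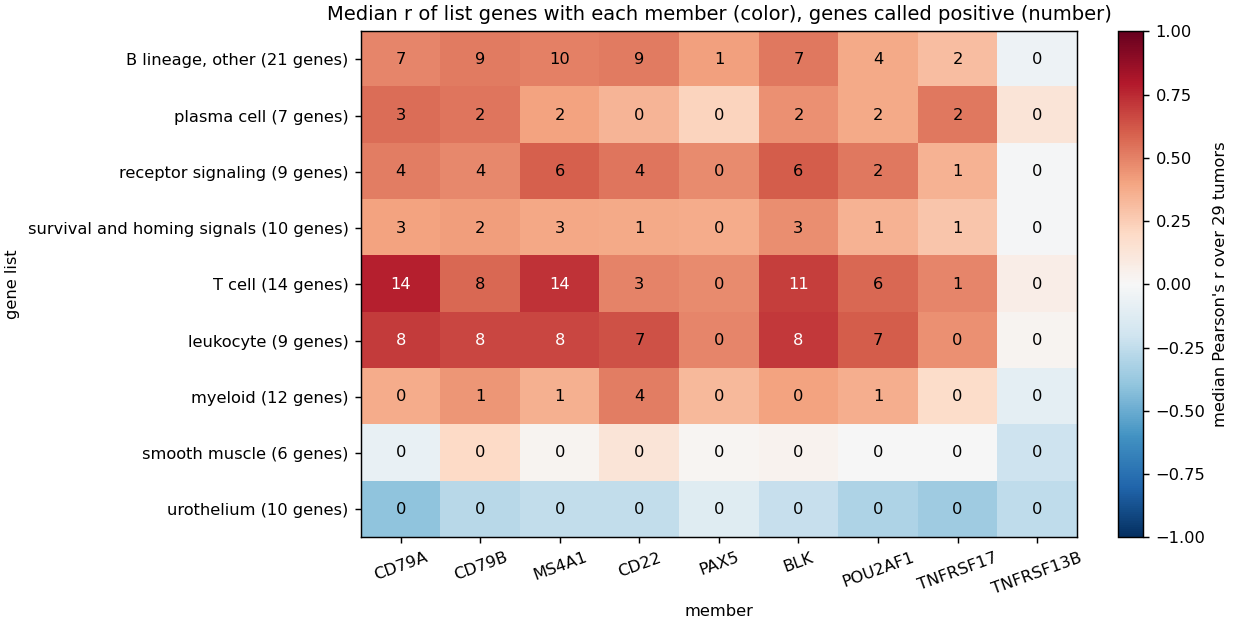
Co-variation of marker lists (rows, with the number of genes tested) with each of the 9 genes (columns) over the 29 tumors. Color is the median Pearson's r of the list and the number is how many of its genes were called positive by limma, which reaches 14 of 14 T-cell genes for CD79A and MS4A1 (10 and 11 without tumor Da6) and 0 in every list for TNFRSF13B.

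Outside the 9 genes, the 10 genes with a symbol and the highest mean r over the members across 29 tumors were BHLHA15, IKZF3, CARMIL2, MZB1, CSF2RB, CD5, NLRC3, TRAF3IP3, JCHAIN and IGHM. BHLHA15, also called MIST1, a regulator of secretory cells that include plasma cells, had the highest mean r at 0.66, and IGHM, the constant region of IgM, had 0.62. Without Da6 these became 0.55 and 0.50, and the means of all 10 genes ran from 0.49 to 0.56. IKZF3, the B-lineage regulator Aiolos, had a mean r of 0.66 and was closest to MS4A1 at 0.85. SLC16A5, EHMT1 and ARHGAP5 had the most negative means, at -0.55, -0.54 and -0.54, which became -0.39, -0.36 and -0.40 without Da6.

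Partners were sought outside the members, and the closest single one differed between members. CD79A was closest to TRAC, the constant chain of the T-cell receptor, at r = 0.87 over 29 tumors (0.83 without Da6). MS4A1 and BLK were both closest to NLRC3 at 0.87 and 0.83 (0.83 and 0.80 without Da6). CD79B was closest to CSF2RB at 0.81, CD22 to GIMAP8 at 0.76, PAX5 to FCRL1 at 0.76 and POU2AF1 to BHLHA15 at 0.79, which became 0.74, 0.75, 0.76 and 0.70 without Da6. TNFRSF17 was closest to IGHE, the constant region of IgE, at 0.84, which fell to 0.39 without Da6. TNFRSF13B was closest to RAB26, a vesicle transport protein, at 0.74, with 0.67 without Da6. These values are maxima over all genes with a symbol other than the members, and were not tested as such.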

How the data were processed

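RNA of 29 canine iUC tumors and 4 normal mucosa samples was sequenced in 1 batch. Per the labels, libraries were depleted of ribosomal RNA and read as 150 bp pairs, and the authors aligned the reads to CanFam 3.1 with COBWeb and quantified annotated genes in Strand NGS 3.1. The authors deposited log2 normalized values (TMM and DESeq tables) minus the median of each gene. Levels below a gene's shared lowest value are not recorded. This lowest value was taken as a normalized value of 1, which values centred on each gene's median cannot show. The units of 1 read pair given below rest on it. No count model was applied, because the values are normalized, and the total count of each sample is not in the tables. Precision is limited by 1 read pair, worth more in the normals than in the tumors: 2.90 to 3.63 normalized units in the normals and 1.64 to 2.48 in the tumors. The last, incomplete line of each table was left out.

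The 9 genes and the marker lists were chosen with earlier results of these data known. Genes above the lowest value in at least 4 samples (or never sharing it) were tested with limma 3.58.1 (eBayes with trend, R 4.3.3). Because values were already on the log2 scale, no pseudocount was added. Tumors were compared with normals, and within tumors each member was fitted against every other gene, with Benjamini-Hochberg adjustment over all genes. Permutation tests are two-sided. Python 3.11.15 with scipy 1.17.1 was used. Both fits were first tested on simulated data. The named genes were all members and list genes with large or small values or of known role. The 10 genes most like the members, the 3 most unlike and the closest partner of each member outside the 9 were also named. The labels number no normal and tumor as a pair. The subtypes given by the authors were not used. No sequence is shown. The result of 1 list gene is not reported here.

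Alternatives were the authors' DESeq table, other limma spread models (no trend, group weights), stricter or no filtering, 1 normal left out in turn, no fold threshold, centred samples, the olfactory receptor share, T-cell list or PTPRC as covariates, Spearman's rho, and tumors left out. Leaving out tumor Da6 or the high-background tumors, or keeping only these, and relating the members to the olfactory receptor share within tumors, was chosen after seeing the data.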

Additional observations from a re-analysis of the deposited data

Results flagged for a closer look

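In each gene the 4 normals were examined for 1 normal that stood far from the other 3 by Dixon's test. None of the 9 members had such a normal. Among 120 genes examined, lists included, 12 had one, and chance alone flags about 1 in 20. Normal A was low for TNFRSF13C, the BAFF receptor, at -2.43 and for CD81 at -0.58, and high for MSR1 at 0.93. Normal C was low for SYK at -0.98, for STAP1 at -0.21 and for CXCR4 at -1.14. Normal D was low for IL6 at 0.10 and for TNFSF11 at -3.43, and for 4 urothelial genes, UPK2 at -2.14, UPK3A at -3.20, KRT19 at -1.79 and CDH1 at -2.93. Leaving out normal D did not change which members were called, apart from MS4A1.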

How the results depend on the processing

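Of the tumor and normal comparisons of single members, 126 of 144 alternative values kept both their direction and their side of the threshold. The number of members lower in tumors (3, beside 45.8% of all genes) became 0 with the olfactory receptor share as a covariate (beside 36.7%). It was 1 in the high-background tumors alone (beside 43.9%). It was 2 with a weight per group (beside 45.0%) and with each normal left out (beside 43.3% to 45.2%), where MS4A1 lost its call. With that covariate CD79A was 0.87, CD79B 0.60, CD22 0.64 and POU2AF1 0.37, opposite in sign to the full comparison. CD79A also changed sign without a normal replicate (from -0.42 to 0.16 with each normal left out, positive at 0.13 without A and 0.16 without D) and in the high-background tumors alone (0.48), and CD22 without normal B (-0.27 to 0.13 with each normal left out). The 14 called pairs became 3 without the 2 farthest tumors, 5 without Da6, 9 without the high-background tumors, 0 with the T-cell list and 1 with PTPRC as a covariate. Fits that leave out tumors have fewer samples, and otherwise the cause was not tested. Of these changed pair fits, the share of all genes called is given only for those without Da6.

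Pairs that changed sign all held TNFRSF13B or TNFRSF17. CD79B with TNFRSF13B was -0.0523 by rho, -0.25 without the 2 farthest tumors and -0.20 without Da6. MS4A1 with TNFRSF13B was -0.13 by rho, -0.30 without the 2 farthest, -0.0588 given the T-cell list and -0.25 without Da6. PAX5 with TNFRSF13B was -0.0169 without Da6, and BLK with TNFRSF13B was 0.17 where both were above the lowest value. With TNFRSF17, CD79B was -0.0542 without the 2 farthest tumors, CD22 was -0.0279 given the T-cell list and -0.0371 given PTPRC, and BLK was -0.0546 given the T-cell list. With 4 normals, in which 1 read pair was worth more than in the tumors, small differences in weakly expressed genes were not detectable.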

Other observations

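Antibody and T-cell receptor genes, chosen after their values were seen, were read in the same tumors. IGHM, the constant region of IgM, was -1.11 to -0.68 in the normals and ran from -2.33 over a median of 0.24 to 9.67 in the tumors, with tumor Da6 highest and tumor JE next at 5.96. Its tumor minus normal difference was 2.15 ± 1.36 (log2, SE, limma adjusted p = 0.158). IGHE, the constant region of IgE, was at its lowest value in 19 tumors, and its highest tumors were Da6 at 7.11 and 5 at 2.29, while the normals were at 2.15 to 4.82. IGHE fell by 3.06 ± 0.72 in tumors (limma adjusted p = 3.43e-04). Of the light chain genes, IGKV4-1 was 0.42 to 4.40 in the normals and at its lowest value in 27 tumors. IGKV4-1 passed the filter on low values only through the normals, so no test of it is given. IGKV2D-26 differed by -0.25 ± 1.62 (limma adjusted p = 0.895) with Da6 highest at 7.47. TRAC was -0.60 to -0.07 in the normals and -2.63, 0.28 and 4.33 at the lowest, median and highest tumor, again with Da6 highest and tumor 4 next at 2.54. Immunoglobulin and T-cell receptor loci are rearranged and hold near-identical copies, so their counts are uncertain.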
